A study of Homo sapiens with 13 samples.

Results

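CD34lo CD41- cells were compared with CD34- CD41- cells, both sorted on day 7 of the differentiation of human embryonic stem cells toward blood. A gene belonged to the comparison when its normalized level differed at least 2-fold between the arrays of these fractions and it was detected on the brighter one. This rule took 1059 of 14216 genes detected on at least 1 of the 2 arrays, 415 of them higher (2.92% of genes tested) and 644 lower (4.53%) in CD34lo CD41- cells. The genes were then sorted by whether CD34hi CD41- or CD34lo CD41lo cells, sorted on the same day, held the higher level. The cells were HES3 RUNX1C GFP/w, a reporter line, kept on mouse feeder cells before differentiation, made from the human embryonic stem cell line HES3, in which GFP marks one of the RUNX1 transcript forms. All cells grew in APEL medium as spin embryoid bodies (aggregates that centrifugation brings together), with BMP4, VEGF, SCF and activin for the first 4 days, and with BMP4, VEGF, SCF, FGF2 and IGF2 after that. The 4 groups of sorted cells were CD34lo CD41-, CD34hi CD41-, CD34lo CD41lo and CD34- CD41-, with 1 array each, and unsorted cells of days 0 to 8 gave 9 further arrays, 1 a day. With 1 array per fraction there is no replicate check, no SD and no p-value for a difference between fractions, and the sizes below describe these arrays.

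CD34 is a surface protein of endothelium and of early blood cells, and CD41, the alpha IIb integrin encoded by ITGA2B, appears on the earliest committed blood cells and on megakaryocytes. In the embryo the first blood cells arise from mesoderm together with endothelium, and later ones bud from endothelial cells that switch on blood transcription factors such as RUNX1 and GFI1. In mouse embryos GFI1 is a repressor that shuts down endothelial genes in such cells. A fraction that carries low CD34 and no CD41 can therefore hold cells at several points between mesoderm, endothelium and blood. Embryoid bodies also hold epithelium, endoderm and mesenchyme. In bulk samples such as these, fewer cells of a type and less RNA per cell cannot be told apart.

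Promoter sequences of 3 genes are shown because the comparison divides along them: ECSCR, an endothelial surface protein on the CD34hi CD41- side, GFI1, a blood factor on the CD34lo CD41lo side, and RHAG, a red cell membrane protein on the same side. They are the 250 bases before the first listed start in RefSeq (GRCh38.p14), chosen after the values were seen, with motif matches on either strand in capitals. The motif searched for ETS factors was GGAAGT. For GATA factors it was AGATAA, with TGATAA as its other accepted form. For RUNX factors it was TGTGGT, with TGCGGT as its other accepted form. ECSCR lies at chr5:139462744-139462993 on the minus strand, GFI1, which has 3 listed starts, at chr1:92486926-92487175 on the minus strand, and RHAG at chr6:49636840-49637089 on the minus strand.
ECSCR: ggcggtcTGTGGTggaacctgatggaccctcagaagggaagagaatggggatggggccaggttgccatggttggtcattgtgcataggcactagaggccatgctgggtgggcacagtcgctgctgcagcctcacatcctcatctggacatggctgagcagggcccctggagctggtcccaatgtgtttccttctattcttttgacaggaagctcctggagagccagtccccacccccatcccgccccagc
GFI1: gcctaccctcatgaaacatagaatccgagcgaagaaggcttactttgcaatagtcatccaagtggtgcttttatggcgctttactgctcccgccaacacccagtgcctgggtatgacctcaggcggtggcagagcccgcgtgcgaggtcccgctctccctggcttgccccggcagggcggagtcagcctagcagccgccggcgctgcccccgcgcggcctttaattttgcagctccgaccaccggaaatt
RHAG: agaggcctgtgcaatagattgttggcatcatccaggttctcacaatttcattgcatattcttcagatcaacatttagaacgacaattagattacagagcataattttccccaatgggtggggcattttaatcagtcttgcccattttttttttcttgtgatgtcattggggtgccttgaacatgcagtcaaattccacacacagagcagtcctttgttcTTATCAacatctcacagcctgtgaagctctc
The ECSCR window held a RUNX match 243 bases before the start, the RHAG window a GATA match on the reverse strand 31 bases before it, and the GFI1 window no match to these letters. A listed promoter was found for 153 of the 216 higher genes on the CD34hi CD41- side and for 143 of the 199 on the CD34lo CD41lo side. GATA matches stood in 11.1% of the promoters on the CD34hi CD41- side and 18.2% of those on the CD34lo CD41lo side, against 14.9% of all 27305 promoters listed. RUNX matches stood in 19.6% and 8.39% of the same promoters, against 16.1% of all, and ETS matches in 19.6% and 23.1%, against 19.9% of all. These shares describe letters in a window and say nothing of binding.

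The sorted antigens ran as the gates name them. CD34, as a normalized log2 level, stood at 10.58 in CD34lo CD41- cells and 8.52 in CD34- CD41- cells, and at 12.88 in CD34hi CD41- and 10.06 in CD34lo CD41lo cells. That is 4.16-fold higher in CD34lo CD41- than in CD34- CD41- cells, while the other CD34 probes differed by 0.37 to 2.86 on the log2 scale. ITGA2B was detected at 5.96 in CD34lo CD41- cells, was not detected in CD34- CD41- or CD34hi CD41- cells, and stood at 9.19 in CD34lo CD41lo cells. It was at least 1.59-fold higher in CD34lo CD41- than in CD34- CD41- cells and so missed the rule.

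ICAM2 and GFI1, the genes given as marks of the fraction, both belonged to the higher genes. ICAM2, an adhesion molecule of endothelium, platelets and leukocytes, had the largest fold of all 415, at 10.76 in CD34lo CD41- and 6.48 in CD34- CD41- cells (19.56-fold), with 11.31 in CD34hi CD41- and 10.89 in CD34lo CD41lo cells. It was thus near its top in every CD34-bearing fraction and low in CD34- CD41- cells alone. GFI1 stood at 9.22 in CD34lo CD41- cells and was not detected in CD34- CD41- cells, at least 15.21-fold apart, with 7.36 in CD34hi CD41- and 9.58 in CD34lo CD41lo cells. Its level in CD34lo CD41- cells was therefore much closer to that of CD34lo CD41lo than to that of CD34hi CD41- cells.

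Across cell types, the fraction stood above CD34- CD41- cells in endothelial and red cell markers and still carried much of the endoderm, mesenchyme and epithelium signal. Summed over 6 endothelial markers (PECAM1, CDH5, KDR, TEK, TIE1 and ESAM), normalized intensity was 5646 in CD34lo CD41- and 1131 in CD34- CD41- cells, with 16746 in CD34hi CD41- cells, and all 6 were higher. Over 3 red cell markers (HBE1, HBZ and ALAS2, of which only ALAS2 reached 2-fold) it was 7597 in CD34lo CD41- and 4496 in CD34- CD41- cells. CD34hi CD41- cells had 455 and CD34lo CD41lo cells 21879. Over 5 endoderm markers (AFP, TTR, APOA1, APOA2 and FOXA2) it was 26614 in CD34lo CD41- and 37738 in CD34- CD41- cells, while CD34hi CD41- cells had 1529 and CD34lo CD41lo cells 1673. Over 5 mesenchyme markers (COL3A1, DCN, LUM, PDGFRA and POSTN) it was 11053 in CD34lo CD41- and 15630 in CD34- CD41- cells, and over 3 epithelial markers (EPCAM, CDH1 and KRT19) 5984 in CD34lo CD41- and 12406 in CD34- CD41- cells. Of 3 leukocyte markers only LCP1 was detected on the pair, at an intensity of 2043 in CD34lo CD41- and 3152 in CD34- CD41- cells, so it ran the other way from the red cell sum. The leukocyte markers PTPRC and CORO1A, the platelet gene PF4 and the pluripotency factors NANOG and SOX2 were not detected on either array of the pair. The part of this mixture in the differences below was not tested.

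**Figure D1:**
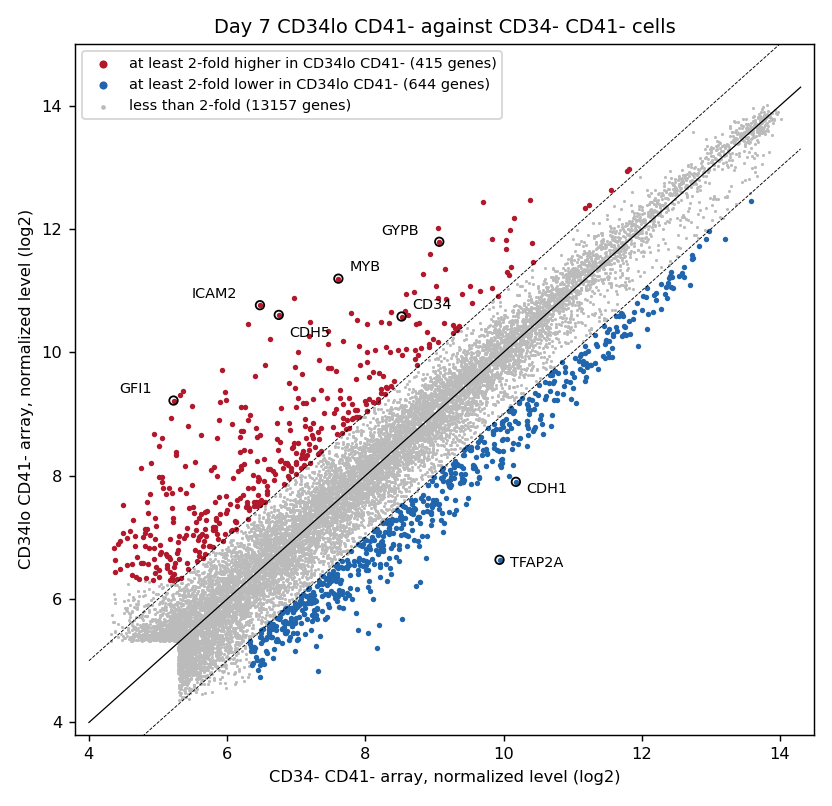
Normalized log2 level of every gene tested on the CD34lo CD41- array (y axis) and on the CD34- CD41- array (x axis), with 415 genes at least 2-fold higher in CD34lo CD41- cells in red, 644 at least 2-fold lower in blue and 13157 others in grey. The solid line marks equal levels and the dashed lines 2-fold; among the labelled genes ICAM2 and GFI1 lie farthest above the line, and TFAP2A farthest below.

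The higher genes reached farther from equality than the lower ones, although they were fewer. At least 4-fold differences were found for 108 higher and 15 lower genes, and the median fold was 2.78 for the higher and 2.43 for the lower genes. For 82 higher genes CD34- CD41- cells had no detected signal, and for 31 lower genes CD34lo CD41- cells had none, so these folds are lower bounds. With the values deposited by the authors 660 genes were higher and 958 lower, and with a larger offset in the normalization (50) 294 and 424. The median over all genes tested was 0.012 on the log2 scale, but the normalization gives every array the same distribution, so a value near 0 was largely set by it. None of the 12 reference genes measured, which serve as a check of scale, reached 2-fold (median 0.125). Among 2855 genes with several probes detected on both arrays, the probes of a gene gave log2 differences with a pooled SD of 0.291. Of 271 called genes with further probes, 118 had every probe past 2-fold and 38 had a probe that differed in the opposite direction.

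Endothelial surface genes formed the clearest block of higher genes. Of 20 measured members 14 were higher and none lower, with a median difference of 1.98 on the log2 scale, and all 14 stood higher in CD34hi CD41- than in CD34lo CD41lo cells. ECSCR was at 10.89 in CD34lo CD41- and 6.96 in CD34- CD41- cells (15.22-fold), and at 12.44 in CD34hi CD41- and 10.22 in CD34lo CD41lo cells. CDH5, the cadherin of endothelial junctions, was at 10.61 in CD34lo CD41- and 6.75 in CD34- CD41- cells (14.52-fold), and at 12.19 and 9.55 in CD34hi CD41- and CD34lo CD41lo cells. PECAM1, the junction protein CD31, was at 10.21 in CD34lo CD41- and 6.62 in CD34- CD41- cells (12.07-fold). In each of these genes CD34- CD41- cells were the lowest and CD34hi CD41- cells the highest of the 4 fractions. The others with the largest folds were EGFL7, a secreted vessel protein (6.77-fold), the tight junction protein ESAM (5.78-fold), PLVAP, which forms the diaphragms of endothelial openings (5.15-fold), CD93 (5.01-fold) and RASIP1, which acts in vessel lumen formation (4.83-fold). VWF, the clotting factor stored in endothelium, missed the rule at 0.80 on the log2 scale, and PODXL, a sialomucin, stood at -0.50.

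Several receptors for vessel growth signals were higher, and several vessel ligands were lower. Of 11 receptors measured 5 were higher and none lower, each of them on the CD34hi CD41- side. TIE1 stood at 8.49 in CD34lo CD41- cells and was not detected in CD34- CD41- cells (at least 9.16-fold), with 10.69 in CD34hi CD41- cells. CALCRL, the receptor for adrenomedullin (6.81-fold), KDR, the main VEGF receptor of endothelium (4.61-fold), the angiopoietin receptor TEK (2.38-fold) and the BMP9 receptor ACVRL1 (2.25-fold) followed. Of 10 ligands measured none was higher and 4 were lower: ADM, which encodes adrenomedullin (3.28-fold lower), BMP2 (2.33-fold lower), VEGFA (2.18-fold lower) and ANGPT1 (2.10-fold lower). ADM was at 8.27 in CD34lo CD41- and 9.98 in CD34- CD41- cells, so that it and its receptor gene CALCRL, at 8.16 in CD34lo CD41- and 5.39 in CD34- CD41- cells, differed in opposite directions. Of 17 arterial and Notch genes GJA4, a gap junction protein (4.51-fold), and HES4 (2.41-fold) were higher and the Notch ligand DLL1 was 2.83-fold lower, and of 5 venous genes none reached 2-fold.

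Higher transcription factors of endothelium lay mostly on the CD34hi CD41- side. A gene can belong to more than 1 list, as SOX17 and HHEX do, so the lists are not independent counts. Of 28 measured 17 were higher and 2 lower (median 1.13 on the log2 scale), and 13 of the 17 stood higher in CD34hi CD41- cells. FLI1, an ETS factor of blood and endothelium, was at 9.61 in CD34lo CD41- and 6.41 in CD34- CD41- cells (9.22-fold), and at 10.78 in CD34hi CD41- and 9.55 in CD34lo CD41lo cells. SOX7 was at 10.01 in CD34lo CD41- and 7.02 in CD34- CD41- cells (7.91-fold), and SOX18, of the same SOXF group, at 10.46 and 8.03 (5.40-fold). SOX17, the remaining SOXF gene, was 2.53-fold lower, at 6.31 in CD34lo CD41- and 7.65 in CD34- CD41- cells, while CD34hi CD41- cells had 8.25 and CD34lo CD41lo cells no detected signal. SOX17 is also a factor of endoderm. EPAS1, a hypoxia-inducible factor, was likewise 2.73-fold lower and highest in CD34hi CD41- cells, at 7.54 in CD34lo CD41- and 8.99 in CD34- CD41- cells. LYL1 (6.27-fold), LMO2 (5.46-fold) and TAL1 (at least 4.89-fold), which work together in one complex in blood cells, stood higher in CD34lo CD41lo cells, and HHEX (5.38-fold) and KLF2, a factor that responds to blood flow (4.59-fold), in CD34hi CD41- cells.

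**Figure D2:**
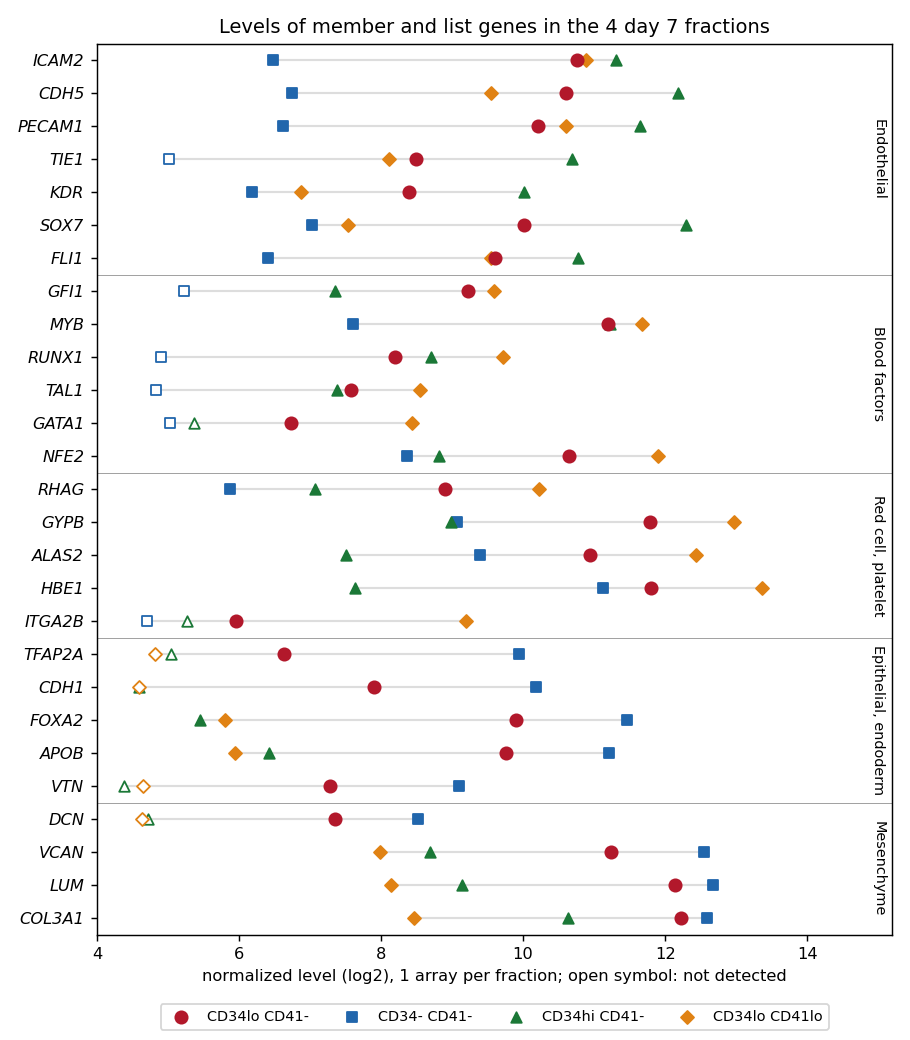
Normalized log2 level (x axis) of 27 genes in the 4 fractions, with 1 array per symbol, filled where the gene was detected and open where it was not, grouped by cell type. Endothelial genes end in CD34hi CD41- cells, blood factors and red cell genes in CD34lo CD41lo cells, and epithelial and endoderm genes in CD34- CD41- cells, with CD34lo CD41- cells between for most.

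Blood transcription factors made up the other block. Of 21 measured 11 were higher and 1 lower (median 1.45 on the log2 scale), and all 11 stood higher in CD34lo CD41lo than in CD34hi CD41- cells. MYB, which blood stem and progenitor cells need, was at 11.20 in CD34lo CD41- and 7.61 in CD34- CD41- cells (12.00-fold), and at 11.23 and 11.68 in CD34hi CD41- and CD34lo CD41lo cells. RUNX1 was at 8.20 in CD34lo CD41- cells and not detected in CD34- CD41- cells (at least 7.50-fold), with 8.70 in CD34hi CD41- and 9.71 in CD34lo CD41lo cells. MYB thus stood close together in the CD34-bearing fractions, while RUNX1 was highest in CD34lo CD41lo cells. NFE2, a factor of red cells and platelets, was at 10.65 in CD34lo CD41- and 8.37 in CD34- CD41- cells (4.87-fold), and at 8.81 in CD34hi CD41- and 11.90 in CD34lo CD41lo cells. GATA1, which drives red cell genes and had a smaller fold (at least 2.73-fold), was at 6.74 in CD34lo CD41- and 8.44 in CD34lo CD41lo cells and was detected in neither CD34- CD41- nor CD34hi CD41- cells. NFE2 and GATA1 were thus higher in both CD34lo fractions than in CD34hi CD41- cells, whereas MYB and RUNX1 were not higher in CD34lo CD41- than in CD34hi CD41- cells. CEBPA, a factor of myeloid cells and of liver, was 2.64-fold lower, and its highest level was the 9.25 of CD34- CD41- cells, against 7.84 in CD34lo CD41- cells.

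Among red cell genes surface proteins, the theta globin and a haem enzyme were higher, while the embryonic globins HBE1 and HBZ did not reach 2-fold. Of 20 measured 7 were higher and none lower, all on the CD34lo CD41lo side (median 0.77 on the log2 scale). RHAG was at 8.90 in CD34lo CD41- and 5.88 in CD34- CD41- cells (8.13-fold), and at 7.07 in CD34hi CD41- and 10.23 in CD34lo CD41lo cells. The glycophorin GYPB was at 11.79 in CD34lo CD41- and 9.07 in CD34- CD41- cells (6.60-fold), and at 8.98 and 12.97 in CD34hi CD41- and CD34lo CD41lo cells. GYPE (4.28-fold) is a close copy of GYPB, and their probes may share signal. HBQ1, the theta globin (3.12-fold), ALAS2, which makes the first haem precursor in red cells (2.92-fold), and SLC25A37, the iron carrier of mitochondria (2.33-fold) were also higher. The embryonic globins were high on both arrays: HBE1 stood at 11.80 in CD34lo CD41- and 11.13 in CD34- CD41- cells, and HBZ differed by 0.37 on the log2 scale. CD34hi CD41- cells had 7.64 for HBE1 and 6.21 for HBZ, below both.

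Platelet, leukocyte and myeloid lists each held some higher genes, most of them on the CD34lo CD41lo side. Of 7 megakaryocyte genes measured 2 were higher and none lower, both on the CD34lo CD41lo side. GP1BA, a platelet receptor for VWF, was at 7.69 in CD34lo CD41- and 6.22 in CD34- CD41- cells (2.76-fold), and at 7.39 and 9.00 in CD34hi CD41- and CD34lo CD41lo cells. Of 12 leukocyte genes 7 were higher and none lower (median 1.46 on the log2 scale), led by the lysosomal protein LAPTM5 (7.24-fold), ARHGDIB, a regulator of small GTPases (6.65-fold), and CD44, the hyaluronan receptor (6.34-fold). LCP1, a defining leukocyte marker, differed by -0.63 on the log2 scale, that is in the other direction, and did not reach 2-fold. Of 10 myeloid genes 5 were higher, led by FCER1G, an Fc receptor chain (at least 6.43-fold), and AIF1 (3.68-fold), all on the CD34lo CD41lo side, and CD68 was 2.20-fold lower on its brightest probe. The other CD68 probes stood 0.69 and 0.90 higher on the log2 scale in CD34lo CD41- cells, so its direction is not settled.

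Other higher genes with large folds belonged to none of the lists above, and F2RL2, FERMT3 and TIMP3 are counted in lists given further on. F2RL2, a thrombin receptor, was at 10.45 in CD34lo CD41- and 6.30 in CD34- CD41- cells (17.72-fold), and at 11.78 and 9.40 in CD34hi CD41- and CD34lo CD41lo cells. SCGN, a calcium-binding protein best known from endocrine cells, was at 9.30 in CD34lo CD41- and 5.31 in CD34- CD41- cells (15.87-fold), and at 7.29 and 9.64 in CD34hi CD41- and CD34lo CD41lo cells. Like GFI1, SCGN stood near its CD34lo CD41lo level in CD34lo CD41- cells. FERMT3, the kindlin that activates integrins in blood cells, was at 8.93 in CD34lo CD41- cells and not detected in CD34- CD41- cells (at least 12.45-fold), and MS4A3, a gene of myeloid progenitors, was 12.40-fold higher. On the CD34hi CD41- side followed the kinase PRKCB (13.85-fold), MYCT1 (at least 10.46-fold), the small GTPase RASL10A (10.42-fold) and the exchange factor VAV3 (9.46-fold). The CD34lo CD41lo side held TIMP3, an inhibitor of metalloproteinases (10.44-fold), PTGS1, the cyclooxygenase of platelets (9.90-fold), SAMSN1 (9.81-fold) and the lysophosphatidic acid receptor LPAR5 (9.49-fold). Other probes of PRKCB, VAV3 and PTGS1 gave smaller differences, down to 1.13, 0.82 and 0.72 on the log2 scale.

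**Figure D3:**
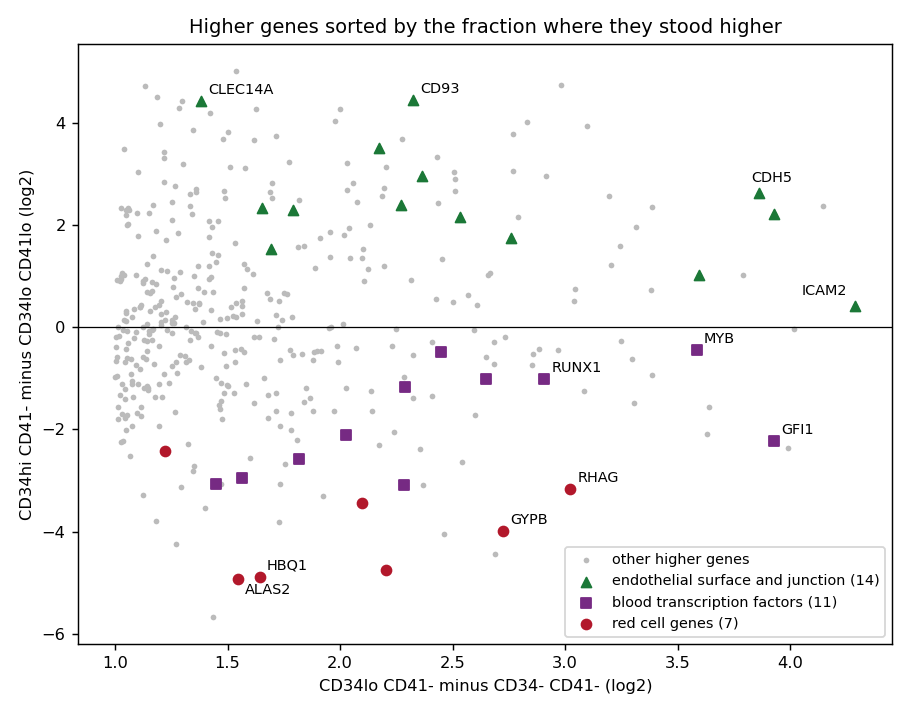
The 415 higher genes by their log2 difference of CD34lo CD41- minus CD34- CD41- cells (x axis) and of CD34hi CD41- minus CD34lo CD41lo cells (y axis), with 3 gene lists marked. All 14 endothelial surface genes lie above 0 on the y axis, and all 11 blood transcription factors and 7 red cell genes below it, while ICAM2 lies close to 0.

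The higher genes split almost evenly between the sides. Of 415, 216 (52.0%) stood higher in CD34hi CD41- cells and 199 in CD34lo CD41lo cells, against 5832 and 6891 of all 14216 genes tested, with the other 1493 detected in neither. At least 2-fold between those fractions were 132 (31.8%) on the CD34hi CD41- side and 104 (25.1%) on the CD34lo CD41lo side, against 7.13% and 5.51% of all genes tested. Positions of the CD34lo CD41- level were taken on a linear scale, starting from the CD34- CD41- level of the gene. For the median gene of the CD34hi CD41- side it lay 34.9% of the way to the CD34hi CD41- level (quartiles 22.2% and 51.1%). On the CD34lo CD41lo side it lay 41.7% of the way to the CD34lo CD41lo level for the median gene (quartiles 31.5% and 59.0%). The rule and the sorting used these same levels and so help to set the positions. No position is given for genes outside the rule. CD34lo CD41- cells held the highest level of the 4 fractions in 14 of the 415 genes, and CD34hi CD41- cells in 208 and CD34lo CD41lo cells in 193. Over all 14216 genes tested these counts were 1438, 3274 and 4905, with CD34- CD41- cells highest in 4599. The rule itself keeps CD34- CD41- cells from being highest in a higher gene. The widest margins of the 14, up to 0.44 on the log2 scale, were those of GBP4, a guanylate-binding protein induced by interferon, and GPR83, a G protein-coupled receptor. GBP4 stood at 10.05 in CD34lo CD41- and 8.13 in CD34- CD41- cells, and at 9.61 and 7.87 in CD34hi CD41- and CD34lo CD41lo cells. GPR83 was at 7.48 in CD34lo CD41- and 5.45 in CD34- CD41- cells, and at 7.10 in CD34hi CD41- cells, and was not detected in CD34lo CD41lo cells. Of the other 12, TBC1D4, a regulator of vesicle traffic, had the largest difference, at 8.90 in CD34lo CD41- and 6.31 in CD34- CD41- cells. It was at 8.65 and 8.70 in CD34hi CD41- and CD34lo CD41lo cells, a margin of 0.20. ZEB2, a repressor of epithelial genes, was at 8.85 in CD34lo CD41- and 7.24 in CD34- CD41- cells. With 8.62 in CD34hi CD41- and 8.80 in CD34lo CD41lo cells, its margin was only 0.05, so the CD34-bearing fractions were nearly level. These genes were named after their values were seen.

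The lower genes were led by epithelial and surface ectoderm genes. Of 20 measured 10 were lower and none higher (median -0.95 on the log2 scale). TFAP2A, a transcription factor of surface ectoderm and trophoblast, was at 6.64 in CD34lo CD41- and 9.94 in CD34- CD41- cells (9.89-fold lower), and was detected in neither CD34hi CD41- nor CD34lo CD41lo cells. TFAP2C was at 5.44 in CD34lo CD41- and 8.04 in CD34- CD41- cells (6.04-fold lower), and CDH1, the epithelial cadherin, at 7.90 and 10.18 (4.85-fold lower). These genes were likewise not detected in the other fractions. CLDN3 (3.21-fold lower), IGFBP3 (2.57-fold lower), EPCAM (2.26-fold lower) and the desmosome protein DSP (2.14-fold lower) had smaller differences, and the keratin KRT19, at 11.91 in CD34lo CD41- and 12.76 in CD34- CD41- cells, missed the rule. Also among the largest folds were DLX5, a homeobox factor (at least 7.17-fold lower), TRIML2 (6.13-fold lower), POU5F1B, a copy of the pluripotency gene POU5F1 (5.22-fold lower), and PATJ, a polarity protein of epithelium (4.28-fold lower). A further probe of TFAP2A differed by only -0.62 on the log2 scale.

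Endoderm genes were also lower, and their largest folds were smaller than the largest of the epithelial genes. Of 19 plasma protein genes 10 were lower and none higher. Their median was -1.05 on the log2 scale, no nearer to equality than the -0.95 of the epithelial genes. VTN, which encodes vitronectin, was at 7.28 in CD34lo CD41- and 9.09 in CD34- CD41- cells (3.52-fold lower) and was detected in neither other fraction. The fibrinogen chains FGG (3.12-fold lower), FGA (2.69-fold lower) and FGB (2.62-fold lower) differed alike, as did APOB (2.74-fold lower), MTTP, which loads lipid onto it (2.67-fold lower), and the retinol carrier RBP4 (2.49-fold lower). FGB nevertheless stood at 10.94 in CD34lo CD41- and 12.33 in CD34- CD41- cells, far above its 6.88 in CD34hi CD41- and 6.97 in CD34lo CD41lo cells. Of 11 endoderm factors 5 were lower, among them FOXA2 (2.95-fold), FOXA1 (2.91-fold), SOX17 and FOXA3 (2.25-fold), and HHEX, which endothelium also uses, was higher. AFP, the fetal albumin, stood at 11.48 in CD34lo CD41- and 12.40 in CD34- CD41- cells and missed the rule. FTCD, a liver enzyme of folate metabolism, had a larger difference (4.24-fold lower) than any member of these endoderm lists.

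Most mesenchyme genes and collagen chains did not reach 2-fold between CD34lo CD41- and CD34- CD41- cells, 14 of 18 and 12 of 13. Of the mesenchyme genes only DCN, the proteoglycan decorin, was lower (2.25-fold), at 7.35 in CD34lo CD41- and 8.52 in CD34- CD41- cells. BGN (3.71-fold), S100A4 (3.45-fold) and THY1 (3.07-fold) were higher, 16.7% of the list, and all 3 had their highest level in CD34hi CD41- cells. Of 13 collagen chains only COL6A2 reached 2-fold (2.01-fold lower), and COL3A1 stood at 12.22 in CD34lo CD41- and 12.59 in CD34- CD41- cells, against 10.64 in CD34hi CD41- and 8.47 in CD34lo CD41lo cells. Among factors of lateral mesoderm and heart ISL1 (2.81-fold), TBX3 (2.45-fold) and MSX2 (2.20-fold) were lower and MEF2C (2.67-fold) was higher, of 15 measured. VCAN, the large hyaluronan-binding proteoglycan, was 2.48-fold lower, at 11.23 in CD34lo CD41- and 12.54 in CD34- CD41- cells. VCAN belongs to the hyaluronan and protease list, of which 4 genes were higher and 2 lower of 20. MMP9, a gelatinase, was at least 4.55-fold higher.

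**Figure D4:**
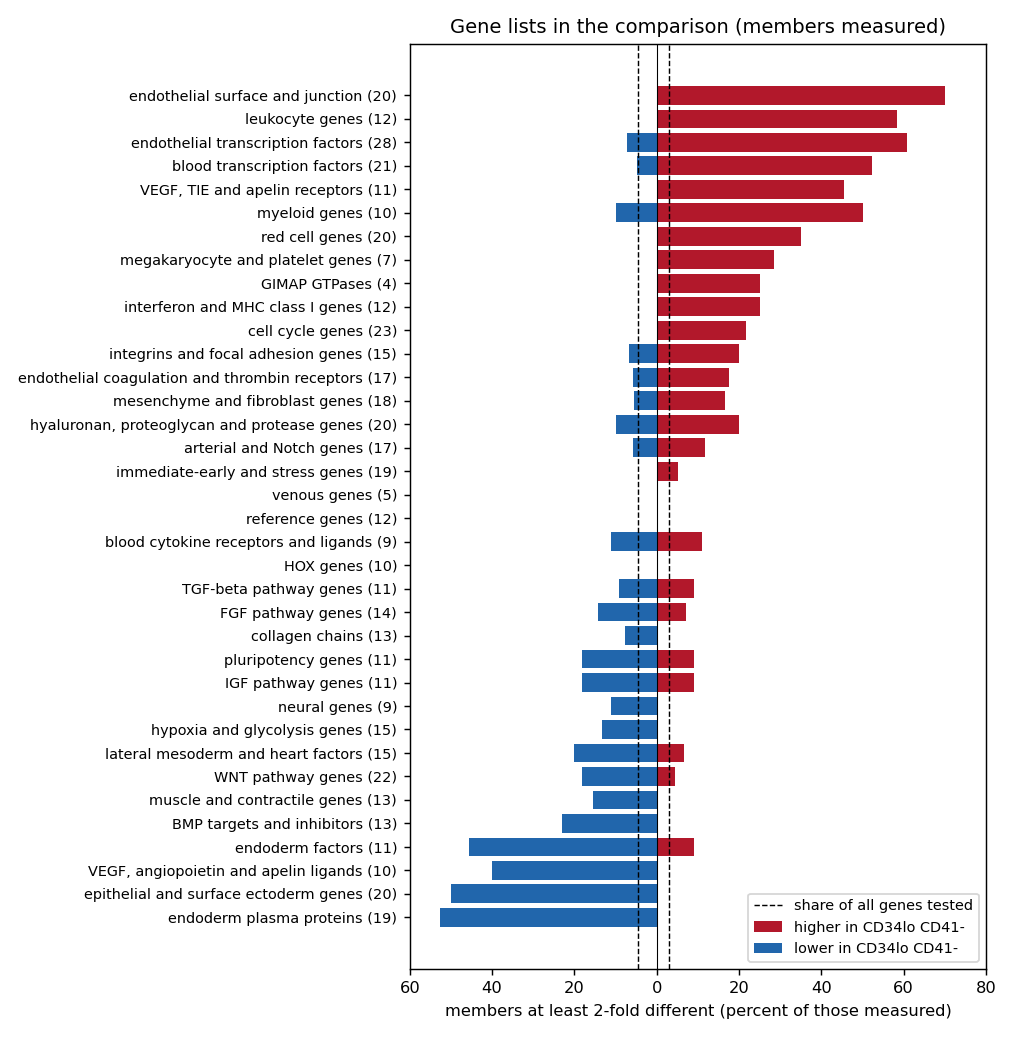
Share of the measured members of each of 36 gene lists (y axis, number measured in brackets) that were at least 2-fold higher (red, right of 0) or lower (blue, left of 0) in CD34lo CD41- than in CD34- CD41- cells, in percent. The dashed lines mark the shares of all genes tested, 2.92% and 4.53%, and the bars run from endothelial surface genes, 70.0% higher, to endoderm plasma proteins at the bottom.

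Signalling lists had few members past 2-fold in number, but the lists were short and several shares lay above those of all genes tested. Lower genes made up 18.2% of the WNT list and 23.1% of the BMP list, against 4.53% of all genes tested. Higher genes made up more of the cell cycle list and of the interferon and MHC class I list than the 2.92% of all genes tested. HOX genes went the other way, with no member past 2-fold. These shares were not tested. WNT pathway genes held 4 lower members of 22, the inhibitors DKK3 (2.45-fold) and FRZB (2.43-fold), RSPO3, which strengthens WNT signals (2.18-fold), and the receptor FZD4 (2.13-fold), and 1 higher, the ligand WNT5B (3.32-fold). WNT5B stood at 7.41 in CD34lo CD41- and 5.68 in CD34- CD41- cells, and at 5.78 in CD34hi CD41- and 9.60 in CD34lo CD41lo cells, a pattern like that of GATA1. FGF receptors FGFR1 (3.36-fold) and FGFR4 (2.78-fold) were lower, and SPRY1, a feedback inhibitor of this pathway, was 2.30-fold higher. BMP pathway genes held 3 lower of 13, with SMAD9 (2.32-fold) and the activin and BMP binder FST (2.29-fold) first. Cell cycle genes held 5 higher of 23, all on the CD34lo CD41lo side, led by CCND3 (4.08-fold), CDKN1A (2.57-fold) and AURKB (2.21-fold). MYC was at 10.95 in CD34lo CD41- and 8.58 in CD34- CD41- cells (5.17-fold), the only one of 19 immediate-early and stress genes past 2-fold. HOX genes held none of 10, hypoxia and glycolysis genes 2 lower of 15, and interferon and MHC class I genes 3 higher of 12. Pluripotency genes went both ways: GDF3, a growth factor, was at 7.70 in CD34lo CD41- cells and not detected in CD34- CD41- cells (at least 5.31-fold), while POU5F1 was detected in CD34- CD41- cells alone (at least 2.22-fold lower) and ZFP42 was 2.05-fold lower. Lists with 1 or 2 members on either side were TGF-beta genes with 1 higher and 1 lower of 11, IGF genes with 1 and 2 of 11, muscle genes with 2 lower of 13 and neural genes with 1 lower of 9. The remaining lists were thrombin receptor and coagulation genes with 3 higher and 1 lower of 17, integrin and adhesion genes with 3 and 1 of 15, hyaluronan and protease genes with 4 and 2 of 20, GIMAP genes with 1 higher of 4, and cytokine receptors with 1 and 1 of 9.

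Sorting of the lower genes gave another picture. Of 644, 262 stood higher in CD34hi CD41- cells, 178 in CD34lo CD41lo cells and 204 were detected in neither, and only 41 (6.37%) and 20 (3.11%) were 2-fold apart, against 7.13% and 5.51% of all genes tested. CD34- CD41- cells held the highest level of the 4 fractions in 638 of them, against 4599 of all 14216 genes tested. The rule sets CD34- CD41- above CD34lo CD41- cells in every lower gene, so this count follows in part from it. The lowest level lay in CD34lo CD41- cells in 38, in CD34hi CD41- cells in 268 and in CD34lo CD41lo cells in 338. Over all genes tested these numbers were 1454, 3933 and 4157. The median level of the lower genes was 7.24 in CD34lo CD41- and 8.59 in CD34- CD41- cells, with 6.01 in CD34hi CD41- and 5.95 in CD34lo CD41lo cells, so CD34lo CD41- cells lay between for the median gene. OVOL2, an epithelial factor, was at 9.18 in CD34lo CD41- and 11.04 in CD34- CD41- cells (3.65-fold lower), with 5.48 in CD34lo CD41lo cells and no detected signal in CD34hi CD41- cells. KCNK12, a potassium channel, had the same order at 10.11 in CD34lo CD41- and 11.94 in CD34- CD41- cells (3.57-fold lower). CHRNA5, a nicotinic receptor subunit, was instead at 8.68 in CD34lo CD41- and 10.57 in CD34- CD41- cells. It was at 8.68 and 8.13 in CD34hi CD41- and CD34lo CD41lo cells, that is nearly level in the CD34-bearing fractions. LEP, which encodes leptin, PLIN5, CFAP74 and SLC35E1 were of the same kind (3.81-fold, 3.54-fold, 3.34-fold and 3.31-fold lower). Other probes of CHRNA5 and SLC35E1 did not show this, at 0.27 for CHRNA5 and -0.44 and -0.01 for SLC35E1 on the log2 scale.

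Such level genes made up 164 of the 644 lower genes when the other 3 fractions had to lie within 0.5 on the log2 scale, a limit set after the data were seen. CHRNA5, with 0.55 between CD34hi CD41- and CD34lo CD41lo cells, fell just outside this limit. Medians of the 164 genes were 8.18 in CD34lo CD41-, 9.42 in CD34- CD41-, 8.14 in CD34hi CD41- and 8.04 in CD34lo CD41lo cells. Of these genes 52 carried names that could not be matched to a current gene. In the unsorted cells, which the rule did not use, 81 of the 164 (49.4%) had their highest level on day 5, compared with 76 of the other 478 lower genes in the course (15.9%) and 1335 of all 16493 genes (8.09%). Their median level was 7.65 on day 4, 9.05 on day 5 and 8.69 on day 6. The part of this pattern in the count of lower genes was not tested. Among the higher genes 45 had the other 3 fractions within the same limit, and without both groups 370 higher and 480 lower genes remained.

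The unsorted course gave a readout of the same genes that the rule had not used. A natural spline with 3 degrees of freedom was fitted over the 9 days with limma, and a gene was called when its fitted level on day 8 differed at least 2-fold from day 4 with a Benjamini-Hochberg adjusted p below 0.05 over 16493 genes. In all 866 genes rose (5.25%) and 465 fell (2.82%). Of the higher genes on the CD34hi CD41- side 50 of 213 rose (23.5%) and 3 fell (1.41%). Their highest level fell on day 6 in 89, against 1299 of all 16493 genes. Of those on the CD34lo CD41lo side 26 of 195 rose (13.3%) and 16 fell (8.21%). Of the lower genes 158 of 642 rose (24.6%) and 20 fell (3.12%). Their highest level fell on day 8 in 193 and on day 5 in 157, against 2266 and 1335 of all 16493 genes. The share that rose was thus above that of all genes in each of these groups, whichever way they differed between the fractions, and no test was made between the groups. Without day 7 the genes that fell numbered 295.

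Most of the higher endothelial surface genes and all of the lower plasma protein genes rose in unsorted cells, while the higher blood factors did not pass. Of the 14 higher endothelial surface genes 11 rose. ICAM2 was at 4.96 on day 4, 8.66 on day 5, 10.05 on day 6 and 9.07 on day 8, and its fitted change was 3.05 ± 0.72 on the log2 scale (SE, limma adjusted p = 0.0304). ECSCR changed by 2.43 ± 0.49 (limma adjusted p = 0.0166). None of the 11 higher blood transcription factors passed. GFI1 was highest on day 5 (7.46), against 5.98 on day 4 and 5.08 on day 8, with a fitted change of -1.37 ± 0.43 (limma adjusted p = 0.0839). RUNX1 was likewise highest on day 5, at 6.53, and MYB on day 6, at 9.50. Of the 5 lower endoderm factors 1 rose. All 10 lower plasma protein genes rose, MTTP by 4.39 ± 0.60 (limma adjusted p = 0.00325) and FTCD, outside the list, by 5.10 ± 0.48 (limma adjusted p = 0.000514). TFAP2C fell, by 1.58 on the log2 scale (SE 0.34, limma adjusted p = 0.021), as did SLC7A3, an amino acid carrier of undifferentiated cells, by 2.49 (SE 0.22, limma adjusted p = 0.000385), and ZSCAN10, a factor of the same state, by 3.39 (SE 0.23, limma adjusted p = 9.63e-05). TIMP3, on the CD34lo CD41lo side, rose by 2.83 ± 0.39 (limma adjusted p = 0.00333).

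**Figure D5:**
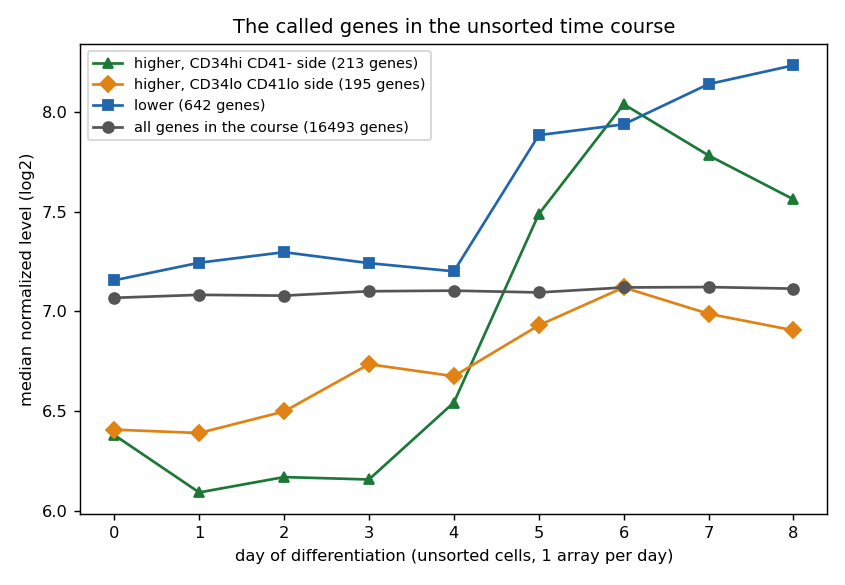
Median normalized log2 level (y axis) of the called genes in unsorted cells by day of differentiation (x axis, 1 array a day), for the higher genes of each side, the lower genes and all 16493 genes in the course. The CD34hi CD41- side peaks on day 6 at 8.04, the lower genes reach 8.23 on day 8, the CD34lo CD41lo side stays between 6.39 and 7.12, and all genes stay between 7.07 and 7.12.

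At the edge of the rule, the genes just inside and just outside differed by very little. Just inside on the higher side were AKR1C4 (2.015-fold), EIF4EBP3, LRR1, DCK and TYMS (2.004-fold), and just outside GFI1B (at least 1.993-fold), DBNDD2, JAG2, UCP2 and ESYT1 (1.981-fold). On the lower side ARHGAP44, MATCAP2, NBPF8, CDX2 and EPOP stood between 2.002-fold and 2.001-fold, and just outside LOC284620 (1.998-fold), POPDC1, LMCD1, SLIT3 and ZBTB40 (1.995-fold). GFI1B, the paralog of GFI1 in red cells and platelets, was at 6.29 in CD34lo CD41- cells, was not detected in CD34- CD41- cells and reached 7.48 in CD34lo CD41lo cells, so it was left out by its detection floor.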

How the data were processed

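Human cells of 1 line were measured on 13 Illumina bead arrays. The intensities were deposited by the authors without normalization, go below 0 (lowest -28.8), so a background had been subtracted, and had medians of 8.7 to 13.4. Beside each intensity stands a detection value, a fraction per the file headers, read as 1 minus the detection p. The authors' deposited log2 values, served as an alternative (their exact scale is unstated). The tools were GenomeStudio 2010.2 and lumi, per the submitters' processing notes.

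Intensities were normalized over the 13 arrays with neqc of limma 3.58.1 (R 4.3.3, offset of 16). Between 15134 and 17833 probes per array had a detection p below 0.01, and precision is limited by how few arrays there are. Of 47231 probes 1, for CDC25C, lacked values and was dropped. Symbols were current for 27036 probes, updated through RefSeq (GRCh38.p14) for 4649, unmatched for 12276 and absent for 3270. The brightest probe stood for a gene, which decided 3665 genes with several probes. A level is log2 of the normalized intensity, and levels of different genes were not compared. Where the dimmer side was not detected, it was raised to its array's detection floor (5.29 to 5.73), and the fold is printed as at least that size. Per the labels, the 4 sorted arrays shared 1 chip and the 9 arrays of the course another. The curve leaves 5 residual degrees of freedom, and its errors are departures of single days from it, since no day has replicates. Of the members 13 were followed in the course by another probe. The fit was tested on simulated data.

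The members, and 36 lists of 658 genes, were chosen with earlier results of these data known. Named genes were the 15 largest folds in each direction, the 10 largest per side for higher and 5 for lower genes, up to 8 members per list by size, CD34, ITGA2B, ICAM2, GFI1 and 5 genes on each side of the threshold. Genes named beside these (VWF, PODXL, LCP1, KRT19, AFP, COL3A1, GATA1, GBP4, GPR83, TBC1D4, ZEB2 and the globins) were chosen after their values were seen. The alternatives were another background correction, offset, detection limit, probe rule, floor, threshold and set of arrays, the authors' values, another curve, a robust prior and leaving out single days. Results for a few genes that met the rule are not reported here.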

Additional observations from a re-analysis of the deposited data

How the results depend on the processing

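The counts of 415 higher and 644 lower genes came to 352 and 526 without background correction, 415 and 637 with the 4 sorted arrays normalized alone, 437 and 676 with a detection p of 0.05, 382 and 564 with the mean over probes, and 485 and 706 without the floor. With the values deposited by the authors they were 660 and 958, and with an offset of 50 they were 294 and 424. At least 4-fold were 108 and 15, of which 59 and 2 stood higher in CD34hi CD41- cells. Counting only genes 2-fold apart between CD34hi CD41- and CD34lo CD41lo cells left 132 higher and 41 lower genes on the CD34hi CD41- side. The share of higher among called genes stayed between 39.2% and 40.9% over the settings that kept 2-fold. Of 189 named genes followed, CD68 alone changed direction, to 0.15 on the log2 scale with the mean over probes, and 158 stayed past 2-fold with an offset of 50. In the course, leaving out single days gave 603 to 945 genes that rose and 295 to 527 that fell, with 295 when day 7 was left out. Dim genes are limited by the detection floor. No paired analysis was possible because each fraction and each day had only 1 array.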
